A study of Mus musculus with 28 samples.

Results

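The effect of calorie restriction on the ovary of old mice was measured on 4 arrays, 2 of ovaries from calorie-restricted (CR) mice and 2 of ovaries from mice fed ad libitum (AL), all labelled 24 months. They were chosen by sample title and are 4 of the 14 ovary arrays and of the 28 arrays of the series. All mice were C57BL/6 females without a genetic alteration, and each array held the RNA of the whole ovary of 1 animal. Both diets began with free access to food in young animals, and the CR animals were then restricted for the rest of life. The labels give an age of 2 years for AL animal 1 and CR animal 1, of 23 months for AL animal 2 and of 24 months for CR animal 2. In each group animal 1 was on version 2.1 of the array and animal 2 on version 2.2, so that both diets were set against each other within each version. The ovaries of 2 animals per diet at 6 and 16 months, and of 2 AL animals at 1 month, gave the context and the error. Within these groups the labels give 17 days for an AL animal of the 1-month group and 15 months for an AL animal of the 16-month group. AL mice had food at all times, whereas CR mice had not received their daily meal when they were killed before noon, so that the lasting effect of the diet and the state of feeding cannot be told apart.

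Calorie restriction delays reproductive ageing in rodents and slows the turnover of follicles. The aged mouse ovary holds few oocytes, and its stroma collects macrophages, many of them fused and filled with lipid and pigment. Fat synthesis from glucose is carried out by enzymes that are switched on by insulin and feeding, and fat cells surround the ovary in its bursa and fat pad. Because whole ovaries were measured, fewer cells of a type and less RNA per cell cannot be told apart.

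Every value below is a log2 ratio of the Cy3 signal of the ovary to the Cy5 signal of a reference RNA pooled from cultured mouse cell lines, and is called a level. A change is the mean level of the 2 CR animals minus that of the 2 AL animals, given with its standard error (SE) from limma over all 14 ovary arrays. Calls needed a limma p, adjusted over all genes (FDR), no higher than 0.1 and a 1.5-fold difference or more. Of the 35328 genes and unnamed probes tested, 7 were called (0.0198%), 5 of them higher (0.0142%) and 2 lower (0.00566%) in CR ovaries, and all 7 had a gene name. The number called was 34 without CR animal 1 and 202 without CR animal 2, where a single animal stood for the diet. At an unadjusted p under 0.05 and 1.5-fold, a weaker rule used below only to describe, 435 passed (1.23%), 194 higher (0.549%) and 241 lower (0.682%). At that p without a limit on the fold, 1564 passed (4.43%). The median change over all genes was 0.0064. Both CR animals lay above both AL animals for 16.4% of all genes and below them for 14.5%.

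The sequences of the kappa light-chain probes are shown because 2 of the 5 genes higher in CR ovaries rest on them. Each probe is a synthetic 60-base oligonucleotide, printed as in the deposited files, and capitals mark a run of 15 or more bases that it shares with another probe shown.
Igk: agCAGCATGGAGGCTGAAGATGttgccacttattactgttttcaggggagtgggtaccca
Igkv4-79: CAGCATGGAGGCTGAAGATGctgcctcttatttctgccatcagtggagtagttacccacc
Igkc: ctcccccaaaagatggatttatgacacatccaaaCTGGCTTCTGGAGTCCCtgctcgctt
Igkv4-58: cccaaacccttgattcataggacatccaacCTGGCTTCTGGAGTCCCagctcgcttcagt
Igkv4-55: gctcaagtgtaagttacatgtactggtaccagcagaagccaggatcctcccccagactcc
The probes of Igk and Igkv4-79 share 20 bases in a row, and those of Igkc and Igkv4-58 share 17. The probe of Igkv4-55 shares no more than 8 bases in a row with any of the other 4. Kappa chains are made from a multigene family, so each probe may also catch relatives of the gene it is named for, and the name of a probe, including that of the constant region, is the one given by its sequence record and the tables of the study.

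Among the called genes, the probes named Igk and Igkc rose most. Both are named for the immunoglobulin kappa light chain, which plasma cells and B cells use to build antibodies. The level of Igk was 1.30 and 0.60 in the AL ovaries and 3.34 and 3.17 in the CR ovaries, a rise of 2.31 (SE 0.21, adjusted p = 0.0106, limma). The probe named Igkc stood at 1.18 and 0.65 in the AL and at 2.68 in each of the CR ovaries, a rise of 1.76 (SE 0.15, adjusted p = 0.00659, limma). That probe shares 17 bases in a row with the probe of the variable gene Igkv4-58, and was not placed in the constant or a variable region here. Its name therefore does not show that the constant region rose. Neither gene differed by more than 0.13 between diets at 6 or 16 months. Igkv4-55, Igkv4-79 and Igkv4-58 were higher by 1.82, 1.75 and 1.66, with both CR animals above both AL animals, but none of these was called. All 3 are named for variable genes of subgroup 4, and the probes named for genes of other subgroups, Igkv6-25, Igkv1-135 and Igkv5-45, had changes of 0.098, -0.15 and -0.68. Of the 8 kappa probes, 5 were thus higher by at least 1.66.

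Other genes of B and plasma cells had smaller changes than these 5 probes. Of the 25 listed genes 20 were measured, 17 with a higher and 3 with a lower mean in CR, and the median change of the list was 0.20. Igk and Igkc were its only called members, and Derl3, which serves protein disposal in secretory cells, passed the weaker rule with a change of 1.17 (SE 0.37). The heavy chains Ighm and Ighg1 had changes of 0.22 and 0.11, and the joining chain Jchain, which links secreted antibodies, one of 0.45 that was 1.16 on version 2.1 and -0.27 on version 2.2. The B cell genes Ms4a1 and Cd79a had changes of 0.25 and 0.049. The mean level of the list was 0.37 and -0.10 in the AL and 0.91 and 0.25 in the CR ovaries, which overlap.

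The other called genes differed between diets by about as much on each array version. Slc40a1, ferroportin, the iron exporter of cells such as macrophages, was at 2.61 and 2.51 in the AL ovaries and at 1.495 and 1.34 in the CR ovaries, a fall of 1.14 (SE 0.085, adjusted p = 0.00411). In the 10 ovaries of other groups its level lay between 2.01 and 2.63, so that the CR ovaries at 24 months were the lowest of all 14. Slc35f2, a membrane transporter, was at 0.95 and 1.19 in the AL and at 0.10 and 0.083 in the CR ovaries, and fell by 0.98 (SE 0.094, adjusted p = 0.0106). Ces1d, a carboxylesterase that splits triglycerides in fat cells and liver, was at 0.14 and 0.38 in the AL and at 1.54 and 1.52 in the CR ovaries, a rise of 1.27 (SE 0.095, adjusted p = 0.00411). Fbln2, fibulin 2, a glycoprotein of the extracellular matrix, was at -3.36 and -3.42 in the AL and at -2.59 and -2.35 in the CR ovaries, a rise of 0.92 (SE 0.089, adjusted p = 0.0106). Ccl11, eotaxin, a chemokine that attracts eosinophils, was at 0.56 and 0.54 in the AL and at 1.38 and 1.40 in the CR ovaries, a rise of 0.84 (SE 0.074, adjusted p = 0.00817). The probe of Ccl11 was the dimmest of the 7, at a mean log2 intensity of 6.32 against a median of 8.23 over all probes, and 15.0% of its bases were G or C against a median of 43.3%.

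The 7 calls rest on the estimate of the error. With the error of the study's own analysis of variance, which never lets a gene's variance fall below a moving average over genes of similar brightness, none was called, and 314 genes passed the weaker rule. Igk, Igkc and Slc40a1 each lost their call in only 1 of the other settings tried. Ccl11 lost it with the scanner's own normalization (0.90, adjusted p = 0.872) and in the deposited table (0.90, adjusted p = 0.788). In the Cy3 channel alone Ces1d, Fbln2 and Slc35f2 were not called, Ccl11 and Fbln2 were dropped when genes with an opposite effect at other ages were left out, and without background correction Igkc was the only one of the 7 still called. Without adjustment for the array version, Ces1d, Igk and Slc40a1 were.

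**Figure D1:**
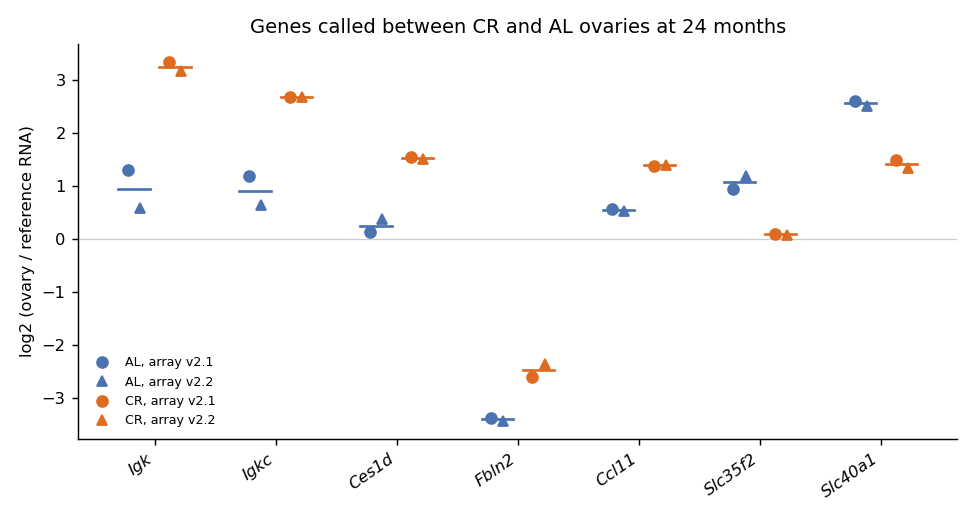
Level of the 7 called genes in each of the 4 ovaries at 24 months, as log2 of ovary over reference RNA. Blue marks stand for AL and orange for CR animals, circles for array version 2.1, triangles for version 2.2 and short lines for the group means. The 2 groups do not overlap for any of the genes, and Igk and Igkc have the widest spread between the AL animals.

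Most genes of lipid synthesis had higher means in CR ovaries, by more in the comparison of animals 1 than in that of animals 2. Of the 29 genes listed for the making of fatty acids and triglycerides, 24 were measured. Of these, 19 had a higher and 5 a lower mean in CR, none was called, and 12 passed the weaker rule, all of them higher, against 0.549% of all genes. Both CR animals lay above both AL animals for 15 of the 24, against 16.4% of all genes, and the median change of the list was 0.79. That median was 1.09 on version 2.1 and 0.19 on version 2.2.

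Scd1, stearoyl-CoA desaturase, which makes monounsaturated fatty acids, had the largest change towards a higher level in CR of all genes measured. Its level was 2.01 and 0.43 in the AL and 4.99 and 3.18 in the CR ovaries, a change of 2.87 (SE 0.62, adjusted p = 0.547). Pnpla3, a protein of lipid droplets that is induced by feeding, was at 0.55 and 0.28 in the AL and at 3.03 and 2.098 in the CR ovaries, and with a change of 2.15 (SE 0.29, adjusted p = 0.118) it came close to the threshold. Dgat2, which carries out the last step of triglyceride synthesis, was at 0.40 and 0.13 in the AL and at 2.71 and 1.51 in the CR ovaries, a change of 1.84 (SE 0.41). Both CR animals were thus above both AL animals for these 3 genes, and animal 2 was lower than animal 1 in both diets each time. On versions 2.1 and 2.2 the change was 2.98 and 2.75 for Scd1, 2.48 and 1.82 for Pnpla3 and 2.31 and 1.37 for Dgat2.

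For the elongase Elovl6 and the carboxylase Acacb, too, CR animal 1 was well above CR animal 2. Elovl6 was at 0.25 and 0.58 in the AL and at 3.63 and 1.28 in the CR ovaries. Acacb, which makes the malonyl-CoA that holds back fat oxidation, was at 0.57 and 0.97 in the AL and at 3.00 and 1.58 in the CR ovaries. Thrsp, a regulator of fat synthesis, was close in the CR animals, at 3.23 and 2.94, against 1.88 and 1.45 in the AL animals. Srebf1, the transcription factor that drives many of these enzymes, was at -0.37 and -0.24 in the AL and at 0.81 and 0.30 in the CR ovaries, a change of 0.86 (SE 0.17). Mogat1, which makes diglycerides, was at -0.056 and -0.010 in the AL and at 0.89 and 0.59 in the CR ovaries, a change of 0.78 (SE 0.10, adjusted p = 0.115). The others that passed the weaker rule were Acss2, Chpt1, Pcx and Lpin1, at changes from 0.80 to 1.16. Fasn, fatty acid synthase itself, had a change of only 0.11 (SE 0.25), Gpam one of -0.011 and Scd2 one of -0.11.

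Gpd1, which supplies the glycerol backbone of triglycerides, was outside the list and had a change of 2.25 (SE 0.59), at 1.37 and 1.60 in the AL and at 4.53 and 2.94 in the CR ovaries. Its dimmer probe had a change of 0.40. Pfkfb3, a regulator of glycolysis, had a change of 1.10 (SE 0.14) that missed the call narrowly, at an adjusted p of 0.107. Its levels were 0.71 and 0.79 in the AL and 1.91 and 1.79 in the CR ovaries, which lay apart. Pdha1, a subunit of pyruvate dehydrogenase, had a change of 0.89 (SE 0.21). Over the 37 measured genes of glucose use and insulin signalling, 18 had a higher and 19 a lower mean in CR, 2 passed the weaker rule with a higher level (0.549% of all genes did), and the median change was 0.00.

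Most markers of fat cells also had higher means in CR ovaries. Of 23 listed genes 22 were measured, 20 with a higher and 2 with a lower mean in CR, at a median change of 0.62. None was called, 6 passed the weaker rule with a higher level (0.549% of all genes did) and 1 with a lower one (0.682% of all genes), and the mean level of the list was 1.46 and 0.86 in the AL and 2.25 and 1.51 in the CR ovaries. Cidec, which enlarges lipid droplets, was at 2.92 and 1.69 in the AL and at 5.22 and 4.66 in the CR ovaries, a change of 2.63 (SE 0.65), against 0.46 for its dimmer probe. Pck1, a key enzyme of glyceroneogenesis, had a change of 1.99 (SE 0.53), Acsl1 one of 1.80 (SE 0.52) and Retn, resistin, one of 1.30 (SE 0.38). With 1 array left out Pck1 ran from 1.07 to 2.91, Acsl1 from 0.74 to 2.87 and Retn from 0.68 to 1.92. Adipoq, adiponectin, a defining product of fat cells, had a change of 1.31 (SE 0.63), Cfd, adipsin, one of 1.00 (SE 0.84) and Fabp4 one of 0.47 (SE 0.47) that was -0.21 on version 2.1 and 1.15 on version 2.2, with a saturated spot on 1 of the 4 arrays. Adipoq ran from 0.66 to 1.95 and Cfd from 0.59 to 1.40 with 1 array left out. Lep, leptin, had a change of 0.023. The median change of the fat cell list was 0.27 at 6 and 0.50 at 16 months, and that of the lipid synthesis list was -0.16 and -0.0003. Fabp5, the listed member that passed with a lower level, is described with the macrophage genes. Per the study's account, surrounding fat was trimmed from the ovaries and histology was used to check this, and the part of fat cells in the values of the lipid genes was not tested.

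Of the brown fat markers, 11 of 12 were measured, with a median change of 0.14. Slc36a2, an amino acid transporter, had a change of 1.30 (SE 0.26), and Cidea, Dio2 and Cox7a1 had changes of 0.48, -0.66 and -0.61. Among 27 genes of fat breakdown and oxidation 15 had a higher and 12 a lower mean in CR, with a median of 0.012. Besides the called Ces1d, the related esterase Ces1g (1.12, SE 0.23), Angptl4, an inhibitor of lipoprotein lipase (1.12), and Pnpla2, the main triglyceride lipase (0.98), passed the weaker rule. Of the enzymes of mitochondrial oxidation, Cpt1a, Acadm, Acadl and Hadha had changes of 0.00, -0.25, -0.0074 and -0.15. The cholesterol synthesis list had 9 higher and 7 lower members of 16 measured. Its members disagreed between animals, Insig1 with 2.23 on version 2.1 and -0.32 on version 2.2, Msmo1 with -0.23 and -1.43 and Dhcr7 with -0.0049 and -1.26.

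**Figure D2:**
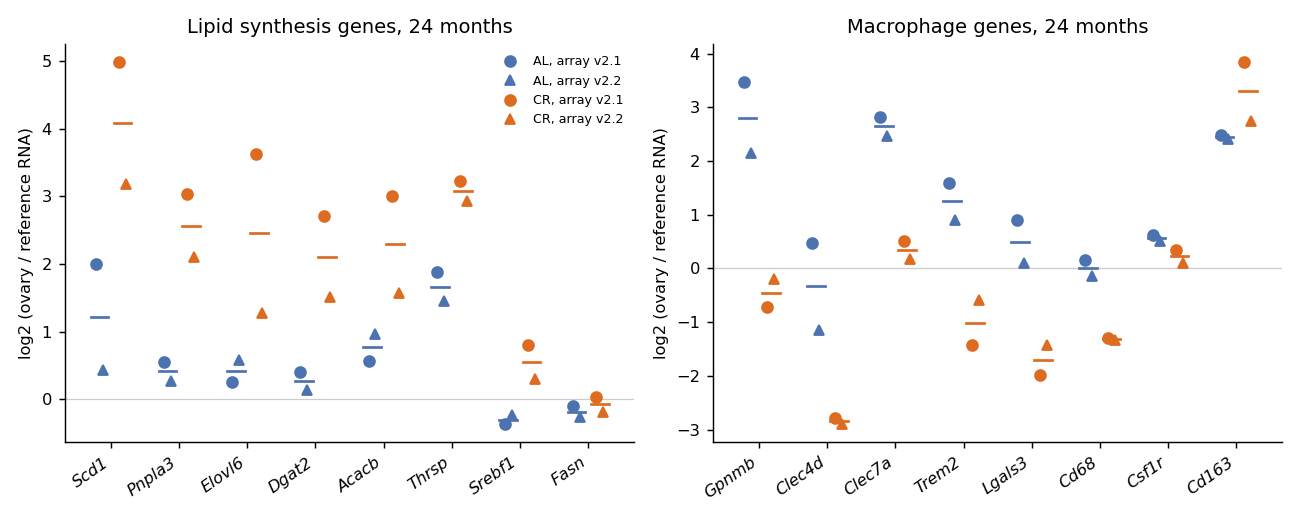
Level of 8 lipid synthesis genes and 8 macrophage genes in each ovary at 24 months, as log2 of ovary over reference RNA, with AL in blue, CR in orange, circles for array version 2.1, triangles for version 2.2 and short lines for the group means. CR lies above AL for the first 7 lipid genes but overlaps for Fasn, and CR lies below AL for 7 macrophage genes but above it for Cd163.

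Most macrophage genes had lower means in CR ovaries, although several defining ones had changes near 0. Of the 35 listed genes 33 were measured, 29 with a lower and 4 with a higher mean in CR, at a median change of -0.50. None was called, and 13 passed the weaker rule, all lower, against 0.682% of all genes. Both CR animals lay below both AL animals for 23 of the 33, against 14.5% of all genes. The median was -0.50 on version 2.1 and -0.55 on version 2.2, and the mean level of the list was 1.32 and 1.00 in the AL and 0.28 and 0.27 in the CR ovaries. At 16 months that mean level was 0.30 and 0.97 in the AL and 0.45 and 1.27 in the CR ovaries, so animals of the same diet and age also differed widely.

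Gpnmb, a membrane glycoprotein of macrophages, was at 3.46 and 2.14 in the AL and at -0.72 and -0.19 in the CR ovaries, a change of -3.26 (SE 0.78, adjusted p = 0.702), the largest in size of all genes measured. Clec4d and Clec7a, lectin receptors for microbial surfaces, had changes of -2.50 (SE 0.53) and -2.30 (SE 0.51). Clec7a was at 2.83 and 2.47 in the AL and at 0.51 and 0.17 in the CR ovaries, so that its groups lay far apart. Trem2, a lipid receptor, was at 1.60 and 0.90 in the AL and at -1.43 and -0.59 in the CR ovaries, a change of -2.26 (SE 0.60). The galectin Lgals3 had a change of -2.20 (SE 0.68), the lysosomal protease Ctss one of -1.98 (SE 0.70), lysozyme Lyz2 one of -1.92 (SE 0.50) and the lysosomal marker Cd68 one of -1.32.

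Other genes with the same pattern were not in the list. Atp6v0d2, a proton pump subunit of osteoclasts and macrophages, was at 2.51 and 2.29 in the AL and at -0.038 and 0.085 in the CR ovaries, a change of -2.37 (SE 0.56). Spp1, osteopontin, had a change of -1.99 (SE 0.58), the receptors Lilrb4a and Ms4a7 changes of -1.60 and -1.55, and Fabp5, a fatty acid carrier listed with the fat cell markers and also made by macrophages, one of -1.63. Each of these lay lower in both CR animals than in both AL animals. They were picked by size among genes past the weaker rule and lower on both versions, so this separation is no added support. With 1 array left out the change of Lilrb4a ran from -2.44 to -0.76 and that of Fabp5 from -2.71 to -0.55. The other probes of Atp6v0d2, Fabp5, Lyz2 and Trem2 had changes between -1.97 and -1.43.

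Other defining macrophage genes had smaller changes, several of them near 0. Csf1r, the receptor for the growth factor on which macrophages depend, was at 0.63 and 0.52 in the AL and at 0.34 and 0.10 in the CR ovaries, a change of -0.35 (SE 0.37). Adgre1, the F4/80 antigen, had a change of -0.58, Itgam one of 0.012, Tyrobp one of -0.021, Laptm5 one of -0.025, and C1qa, C1qb and C1qc of the complement starter had changes of -0.031, -0.23 and -0.16. For C1qa the spot of CR animal 1 had been left out, so its change rests on 3 arrays. Cd163, the scavenger receptor for haemoglobin, went the other way, at 2.48 and 2.41 in the AL and at 3.84 and 2.75 in the CR ovaries, a change of 0.85 (SE 0.52).

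The levels of Gpnmb, Clec4d and Trem2 were lower in the AL ovaries of 1 and 6 months than in those of 16 and 24 months. Gpnmb had a mean level of -1.61 at 1 month, -1.59 at 6 months, 2.11 at 16 months and 2.80 at 24 months in AL ovaries, and -0.46 in the CR ovaries at 24 months. The corresponding means of Clec4d were -2.79, -2.59, -0.87 and -0.33, with -2.84 in the CR ovaries at 24 months. For Trem2 they were -1.98, -0.93, 0.76 and 1.25, with -1.01 in the CR ovaries. In CR ovaries at 16 months the means were 2.55, -0.68 and 1.25 for Gpnmb, Clec4d and Trem2, none of them below the AL mean of that age. Of the 33 macrophage genes, 4 were called higher and 1 lower in AL ovaries at 16 against 6 months, where 2.12% and 3.38% of all genes were.

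Of the other immune lists, MHC class II had 6 higher and 1 lower of 7 measured (median 0.25) and T and NK cells 15 higher and 6 lower of 21 (median 0.14), with none past the weaker rule. Interferon-induced genes had 4 higher and 27 lower of 31 (median -0.17), and 2 passed the weaker rule with a lower level (0.682% of all genes did), Cxcl10, which draws T cells, with -0.89 and Ifit1 with -0.69 (-0.13 at its dimmer probe). Ifi27 differed from most of its list with a change of 0.88 (SE 0.52). The mast cell list had 3 higher and 7 lower of 10, with Cpa3, a granule protease, at a change of -0.84 on both versions and Cma1, mast cell chymase, at -0.50. Complement had 7 higher and 18 lower of 25 (median -0.12), and none of its members was called.

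**Figure D3:**
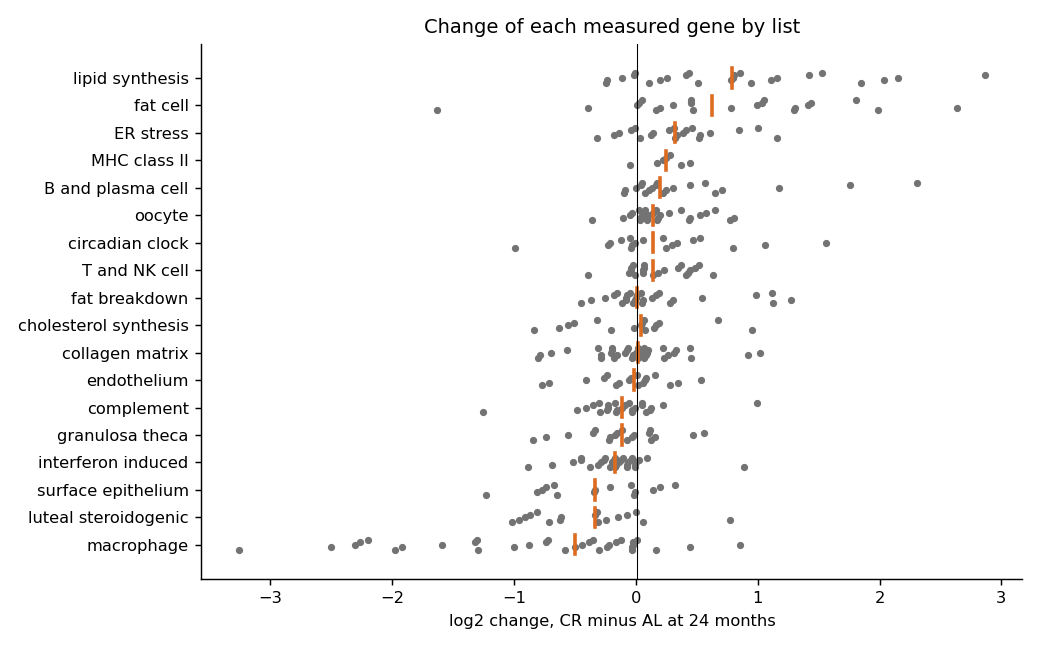
Change between CR and AL ovaries at 24 months (log2) of every measured gene in 18 of the 32 lists, 1 point a gene, with the median of each list as an orange bar and the median of all genes as a black line. The medians run from 0.79 for lipid synthesis to -0.50 for macrophages. Of the other lists shown, that of fat cells has a median of 0.62 and the rest have medians between -0.34 and 0.32.

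**Figure D4:**
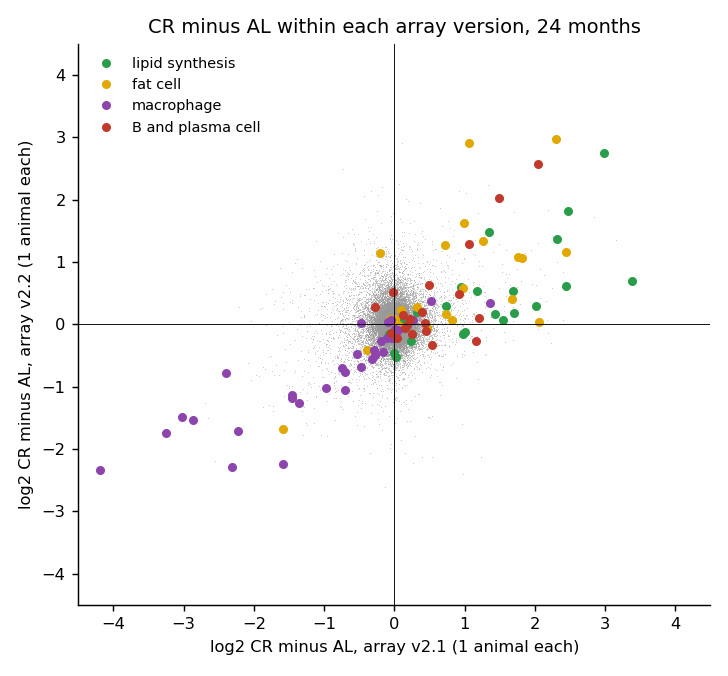
Change between CR and AL within array version 2.1 (horizontal, 1 animal a diet) and within version 2.2 (vertical, 1 animal a diet), both as log2. Grey points are all genes and coloured points the lipid synthesis, fat cell, macrophage and B and plasma cell lists. Most macrophage genes are lower on both axes, while several lipid genes are high on version 2.1 and near 0 on version 2.2.

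Per2 was the clock gene with the largest change. Clock genes follow the time of day and of feeding through a loop in which Arntl and Clock switch on Per and Cry genes, whose proteins then shut them off. Per2 was at -0.45 and -0.57 in the AL and at 0.57 and 1.53 in the CR ovaries, a change of 1.56 (SE 0.38) that was close to those of 1.65 at 6 and 1.58 at 16 months. A dimmer Per2 probe had a change at 24 months of only 0.11. Per3 had a change of 1.06 (SE 0.30), fitted without AL animal 1, whose spot had been left out, and its dimmer probe one of 0.34. Arntl was at -1.29 and 0.40 in the AL and at -1.34 and -1.53 in the CR ovaries, so that its change of -0.99 came from AL animal 2, and its other probes had changes of -0.94 and 0.12. Over the 18 clock genes measured of 23, none was called, 3 passed the weaker rule with a higher level (0.549% of all genes did), and the median was 0.14. Nr1d1 and Per1 had changes of -0.0033 and 0.058.

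RefSeq promoter windows (GRCm38.p6, 250 bases before to 50 after the start site) were given for 14 of the 18 clock genes and 18 of the 24 lipid genes. The E-box CACGTG, the element that Arntl and Clock bind, was found on either strand in 4 of the 14 (28.6%) and 3 of the 18 (16.7%), against 7.15% of all 32851 windows. The D-box TTATGNAA was in 2 clock windows (14.3%) and no lipid window, against 3.38% of all windows. The sterol element TCACNCCAC was in 1 lipid window (5.56%) and no clock window, against 1.24%. The window of Per3 is shown as the clock gene with the largest change that had one, with its D-boxes in capitals (chr4:151044616-151044915, minus strand).
Per3: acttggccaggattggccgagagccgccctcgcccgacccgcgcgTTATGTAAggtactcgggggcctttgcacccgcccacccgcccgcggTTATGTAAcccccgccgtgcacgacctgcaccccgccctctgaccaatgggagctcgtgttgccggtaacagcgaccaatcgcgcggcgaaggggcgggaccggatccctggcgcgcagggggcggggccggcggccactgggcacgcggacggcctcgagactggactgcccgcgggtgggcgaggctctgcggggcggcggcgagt
A match is a description of the letters, and whether any factor binds there was not measured.

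Most listed genes of endoplasmic reticulum stress had higher means in CR ovaries, but none was called. Of 21 measured genes of the 24 in the list of ER stress, 16 were higher and 5 lower, at a median of 0.32 that was 0.022 without CR animal 2, and the median was -0.19 at 6 and 0.035 at 16 months. Herpud1, which takes part in disposal of misfolded proteins, was at -0.41 and -0.19 in the AL and at 0.36 and 1.05 in the CR ovaries, a change of 1.01 (SE 0.24). Creld2 had a change of 1.16 (SE 0.49) with overlapping groups, and Hspa5, the main chaperone of this compartment, one of 0.61 (SE 0.29), also with overlapping groups, that was 0.16 on version 2.1 and 1.06 on version 2.2. Xbp1, a transcription factor of the response and of plasma cells, had a change of 0.52. In the heat shock list 15 were higher and 8 lower of 23, and 2 passed the weaker rule with a lower level (0.682% of all genes did), Hspd1 and its partner Hspe1 (-0.74). Hspd1, a mitochondrial chaperone, was at a change of -1.05 (SE 0.33, without the left-out spot of CR animal 1) while Hsph1, Hspa1b and Hspa1a had changes of 0.92, 0.90 and 0.77 that did not pass it.

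The scanner's mark for a signal well above background was set on all 4 arrays for 34811 of the 35328 genes, all testis germ cell genes among them, and so could not be used to check that the defining genes of the ovary were present. The 27 oocyte genes had 23 higher and 4 lower means in CR, at a median of 0.14, and none passed the weaker rule. Oog1 and Padi6, proteins of the oocyte, had changes of 0.77 and 0.81 (0.51 and 0.075 at their dimmer probes), Oog4, Oog3 and Omt2a of 0.52, 0.45 and 0.65, and the growth factor Gdf9 one of 0.58 (SE 0.71). The zona pellucida genes Zp2 and Zp3 had changes of 0.37 and 0.18, Nobox one of 0.27 and Nlrp5 one of 0.16. The mean level of the list was 0.061 and 0.079 in the AL and 0.13 and 0.44 in the CR ovaries.

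Granulosa and theca genes had 6 higher and 13 lower means, at a median of -0.11 that was -0.36 on version 2.1 and 0.054 on version 2.2. Amhr2, the receptor of anti-Müllerian hormone, had a change of -0.85 (SE 0.25) and Gatm, an enzyme of creatine synthesis, one of -0.74, which ran from -1.38 to -0.31 and from -1.38 to -0.094 with 1 array left out, while Inhbb had one of 0.56 and Hsd17b7 one of -0.56. Luteal and steroid-forming genes had 3 higher and 14 lower means of 17 measured, at a median of -0.34, and both CR animals lay below both AL animals for 8, against 14.5% of all genes. Akr1c12, a steroid reductase, was lower at its brighter probe, with a change of -1.01 (SE 0.19) that passed the weaker rule, but its dimmer probe had one of 0.057. The weaker rule was also passed by Fdx1, the electron carrier of steroid synthesis, with -0.91. Cyp11a1, which starts steroid synthesis, had a change of -0.81 (SE 0.40), the luteinizing hormone receptor Lhcgr one of -0.62, Sfrp4 one of -0.96 that was 0.16 on version 2.1 and -2.08 on version 2.2, and Akr1c18 one of -0.87 that was 0.40 on version 2.1 and -2.14 on version 2.2. Mc2r, the receptor of adrenocorticotropic hormone, was higher by 0.78 (SE 0.28), mainly in CR animal 1. The relaxin receptor Rxfp1 had a change of 0.70 (SE 0.41), mainly in CR animal 2.

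Surface epithelium had 3 higher and 12 lower means of 15, with a median of -0.88 on version 2.1 and 0.21 on version 2.2. Upk1b, a uroplakin of this layer, was at 1.77 and 1.67 in the AL and at 0.13 and 0.84 in the CR ovaries, a change of -1.23 (SE 0.37). Crb2, a polarity protein, had a change of -0.77, Lgr5, a stem cell receptor, one of -0.82 (from -1.10 to -0.44 and from -1.47 to -0.16 with 1 array left out) and Aldh1a2, which makes retinoic acid, one of -0.74. Ciliated cells of the oviduct had a median of -0.17, and Tekt1, Rsph1, Sntn and Dynlrb2 had changes of -0.59, -0.43, -0.33 and -0.30 that took opposite signs on the array versions for all but Sntn. Endothelial genes had 9 higher and 9 lower of 18, with Kdr, a receptor for vascular growth factor, at -0.77 and Bcl6b at -0.71. With 1 array left out, these ran from -1.26 to -0.29 and from -1.03 to -0.39. Lyve1 of lymph vessels had a change of 0.54, and Egfl7, fitted without CR animal 1, one of -0.41.

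The matrix list, in which Fbln2 was called, had 20 higher and 18 lower of 38 measured and a median of 0.017. Muscle, red cell, cell cycle and testis germ cell genes had medians of 0.037, -0.022, 0.022 and 0.0065, with none past the weaker rule. Genes of electron transport had a median of 0.071 and of the mitochondrial ribosome of -0.034. Those of the proteasome had one of -0.079, and 28 of 40 were lower. Of 65 proteins of the cytosolic ribosome 56 were higher, by a median of 0.13, and both CR animals lay above both AL animals for 41, against 16.4% of all genes, although none passed the weaker rule and each change was under 1.5-fold. Of the list of genes induced by glucocorticoids, Sgk1, a kinase, had a change of -1.08 (SE 0.48), from -1.62 to -0.54 with 1 array left out. Fkbp5 had a change of -0.48, Tsc22d3 one of 0.35 and Mt2 one of -0.42.

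Of further genes that the study names for this diet in the ovary, Inmt, a methyltransferase, had a change of 1.38 (SE 0.20, adjusted p = 0.162), at -0.69 and -0.57 in the AL and at 0.80 and 0.70 in the CR ovaries. Gsn, gelsolin, an actin-severing protein, had a change of 1.06 (SE 0.25), and Cyp2e1, a drug-metabolizing enzyme outside that set, one of 1.77 (SE 0.51). The change of Cyp2e1 ran from 0.90 to 2.65 with 1 array left out. Sfpq, a splicing factor, had a change of 0.59 (SE 0.13), and those of Drp2, Lefty1 and Csprs were 0.22, 0.0012 and -0.38.

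**Figure D5:**
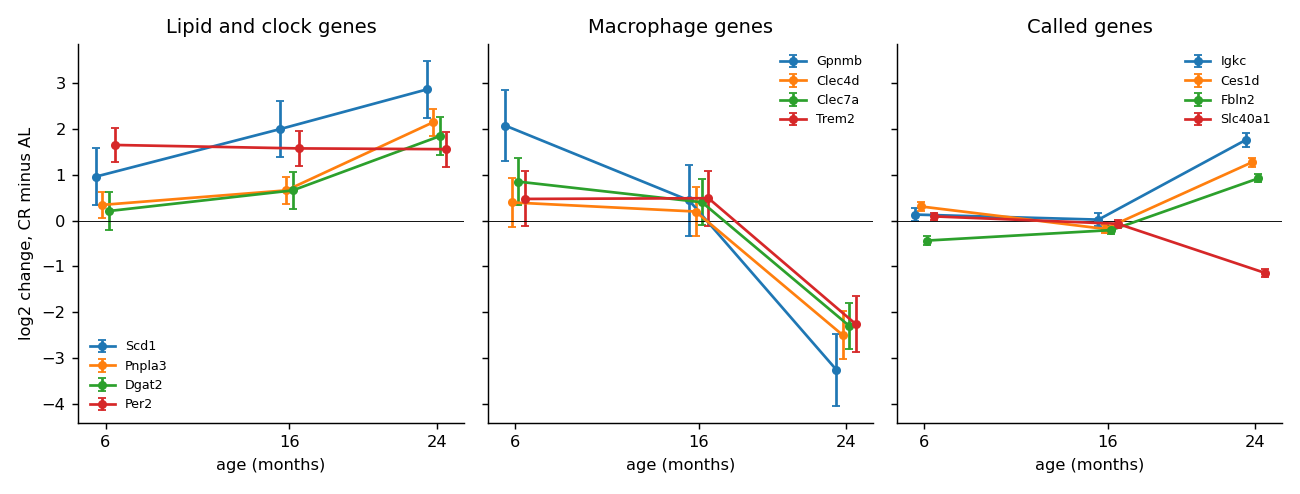
Change between CR and AL ovaries (log2) at 6, 16 and 24 months for 12 genes in 3 panels, with 2 animals per diet and age, where bars are 1 SE of the fit. Per2 is about 1.6 at each age, the 4 macrophage genes are above 0 at 6 and 16 months and between -3.26 and -2.26 at 24 months, and Igkc, Ces1d, Fbln2 and Slc40a1 lie apart from 0 by 0.92 or more at 24 months only.

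Whether the diet acted differently at 24 months than earlier was tested as the change at 24 months minus the mean of those at 6 and 16 months, which come from other animals. In this contrast 13 of 35326 genes and probes were called (0.0368%), 10 with a higher (0.0283%) and 3 with a lower (0.00849%) change at 24 months. They include 6 of the 7 genes above, Igk, Igkc, Ces1d, Fbln2, Ccl11 and Slc40a1, but not Slc35f2, whose changes were -0.63 at 6 and -0.53 at 16 months. Pgrmc1, a membrane component that binds haem and progesterone, was also among them, with changes of 0.47, 0.37 and -0.66 at 6, 16 and 24 months. No macrophage gene was called in this contrast, and 12 of the 33 passed the weaker rule with a lower change at 24 months, against 0.968% of all genes. Mogat1 was called among lipid genes, and 11 of the 24 passed the weaker rule with a higher change, against 1.15%. With the scanner's normalization, the deposited values or the Cy3 channel alone, none was called in this contrast, although 1114, 795 and 759 passed the weaker rule there.

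Genes that differed between AL ovaries of 16 and 6 months, which share no animal with the diet comparison at 24 months, were then described by their change under CR at 24 months. Of the 750 called higher at 16 months, 528 (70.4%) had a lower mean in CR at 24 months, against 47.7% of all genes, and their median change was -0.064, which was 0.018 on version 2.1 and -0.15 on version 2.2. Both CR animals lay below both AL animals for 37 of the 750 and above them for 6. Both are smaller shares than among all genes, where they were 14.5% and 16.4%, so the groups separated less often here. Of the 750, 12 (1.6%) passed the weaker rule with a lower level, against 0.682% of all genes, and none with a higher level, against 0.549%. Of the 1194 called lower at 16 months, 694 (58.1%) had a higher mean in CR at 24 months, against 52.3% of all genes, at a median of 0.039. Both CR animals lay above both AL animals for 232 of the 1194 and below them for 146, against 16.4% and 14.5% of all genes. The weaker rule was passed by 18 (1.51%) with a higher and 13 (1.09%) with a lower level, against 0.549% and 0.682% of all genes.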

How the data were processed

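The authors hybridized each Cy3-labelled ovary RNA with Cy5-labelled reference RNA to Agilent 60-mer arrays and read them with Feature Extraction A.7.5.1. The deposited intensities are unnormalized spot means with local background. The deposited value table of the authors holds log10 values, recorded as a score in 2 columns that carry a code for missing values, and was used as an alternative. Signals were corrected with normexp (offset 50) and normalized by loess in limma 3.58.1 (R 4.3.3), left-out spots being those flagged by the scanner software. Probes of both versions were matched by sequence (38270), and version 2.1 was shifted probe by probe by the median version difference of 6 groups. The shift cancels in the diet comparison where all 4 spots were kept, but costs no degree of freedom in the error. Where a spot was left out, the shift enters the change. With an ovary array of another age left out, the change of Per3 ran from 0.96 to 1.18 and that of Hspd1 from -1.16 to -1.00. Each gene was its brightest probe. Names came from probe accessions in a RefSeq table (GRCm38.p6) and from the supplementary tables of the study, for 14230 genes, and both sources gave one name for 97.2% of the 2125 probes that they share. Groups were fitted over 14 ovary arrays (residual df 7), with Benjamini-Hochberg adjustment. Testis arrays were not used.

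The Cy3 signal was 1.33 to 1.44 times background at the median on the 4 arrays, and at least 98.3% of probes were well above it. The number of arrays limits the precision. That the samples of a group were separate animals comes from the labels. The genes named are the called ones, filled up to 15 in each direction by size of change from genes past the weaker rule that went the same way on both versions, 37 genes that the study names for this diet in ovary (others that it names, mainly for young animals, were not taken up), the called or up to 4 largest members of each list, the largest called differences between ages, and defining markers of the lists. Other list members named, such as Fasn, Mogat1, Thrsp, Cpt1a, Derl3, Hspe1 and Cd163, were chosen after their values were seen. The samples, lists and rules were chosen with earlier results of these data known. The fit was tested on simulated data. Alternatives were other signals, a filter on dim probes, version adjustments, sets of arrays, errors, probes and array weights. Results for some genes are not reported here.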

Additional observations from a re-analysis of the deposited data

Results flagged for a closer look

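The diet effect at 24 months differed from the mean effect at 6 and 16 months, by the contrast in limma, for 13 genes and probes. The difference was 2.25 for Igk, 1.68 for Igkc, 1.25 for Fbln2, 1.21 for Ces1d, 0.87 for Ccl11, 0.96 for Mogat1 and -1.15 for Slc40a1. It was 1.14 for the histone gene H4c18 and 1.09 for H4c2, near-identical members of a multigene family whose probes may share targets, and 0.78 for Atp5k, a subunit of ATP synthase. For these 3 the change at 24 months itself was 0.34 to 0.38 and was not called. Pgrmc1 had a difference of -1.08. The 2 probes without a gene name had differences of 0.86 and -1.09. Groups of 2 animals were too small for the check of single outlying samples.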

How the results depend on the processing

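As reported, 5 genes were called higher, 2 lower and 13 in the contrast with earlier ages. The number called higher was 1 without background correction, 2 without version adjustment, 57 from the 4 arrays of 24 months alone, 0 with the moving-average error and 3 without genes of opposite effect at other ages. The number called lower was 4 with scanner-processed signals, 5 in the deposited table, 1 without background correction, 1 without version adjustment, 127 from the 4 arrays alone and 0 with the moving-average error. In the fit of the 4 arrays the version shift absorbs part of the animal spread. With the moving-average error 314 genes passed the weaker rule. The contrast with earlier ages had 0 calls with scanner-processed signals, 0 in the deposited table, 0 in the Cy3 channel alone and 0 with the moving-average error, where 1114, 795, 759 and 438 passed the weaker rule, 3 without background correction, 6 with the version as a block, 5 without version adjustment, 6 from 12 arrays and 7 with array weights. Leaving out 1 ovary array at a time gave 4 to 160 higher, 2 to 42 lower and 5 to 152 calls in that contrast, the most without CR animal 2 (160, 42 and 152), and without CR animal 1 these were 30, 4 and 40. Without AL animal 1 they were 7, 5 and 7, without AL animal 2 they were 4, 7 and 15, and without either CR animal of 16 months 8 genes were called higher. The lone animal left is then assumed to vary like the other groups. All 7 called genes stayed called in each of these apart from Fbln2, lost without AL animal 2 (adjusted p = 0.106). With the version as a fixed block the same 7 were called. No paired analysis was possible because the labels give animal numbers that no 2 groups share.

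Of 105 named genes 92 kept their direction under all alternatives. Zp3 turned to -0.055 in the Cy3 channel alone and Lefty1 to -0.012 with scanner-processed signals and -0.012 in the deposited table. With 1 array left out, the ranges that crossed 0 were -1.98 to 0.24 for Akr1c18, -0.59 to 1.85 for Ccl5, -0.18 to 1.13 for Fabp4, -0.065 to 1.22 for Gdf9, -0.054 to 1.60 for Hspa1a, -0.32 to 2.23 for Insig1, -0.11 to 0.11 for Lefty1, -0.24 to 0.56 for Nlrp5, -0.22 to 1.83 for Padi6, -2.08 to 0.16 for Sfrp4, -1.91 to 0.73 for Tekt1, -0.21 to 0.95 for Zp2 and -0.044 to 0.41 for Zp3. Over 26 alternatives the list medians ran from 0.18 to 1.06 for lipid synthesis and 0.10 to 1.31 for fat cells. For ER stress they ran from 0.022 to 0.46 and for macrophages from -0.65 to -0.37. That of B and plasma cells took both signs (-0.22 to 0.65). So did others, such as T and NK cells (-0.15 to 0.58), granulosa and theca (-0.40 to 0.11) and surface epithelium (-0.88 to 0.21). The medians of heat shock (-0.041 to 0.40) and oviduct (-0.98 to 0.72) did too. The cause of these differences was not tested. A median signal of 1.33 to 1.44 times background limits what dim probes such as that of Ccl11 can show.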
